A study of Mus musculus with 8 samples.

Results

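The complement components and regulators described here are 8 genes (C3, C4b, C7, C1ra, Cfb, Serping1, Masp1 and Cd55) out of the 49671 gene identifiers in a count table of mouse lung stroma. They were taken by gene name from the authors' comparison table and joined by identifier to the counts of 8 libraries, and all 8 passed the filter on low counts. The libraries came from adult mice that carry Gli2creERT2-tdt, a tamoxifen-inducible recombinase expressed from Gli2, and the R26RYFP reporter. The SmoM2 group (n = 4) also carried SmoM2, a Smoothened mutant that keeps Hedgehog signalling on without ligand, while the control group (n = 4) was Gli2creERT2-tdt:R26RYFP alone. Per the labels' protocols, SmoM2 mice received intraperitoneal tamoxifen on 5 days, with a daily dose of 200 mg per kg. For control mice the sources used here give no tamoxifen schedule. Live YFP+ cells, those in which the Gli2-driven recombinase had acted, were sorted from digested whole lung, and their polyadenylated RNA was sequenced in bulk. Each group is described as 4 mice.

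Complement is a cascade of plasma and tissue proteins that marks surfaces for uptake and can open a pore in membranes. The classical route starts with C1q and its proteases C1r and C1s, which cut C4 and C2. The lectin route starts with collectins, ficolins and the MASP proteases, and the alternative route amplifies the deposition of C3 through factor B and factor D. All routes meet at C3 and can run on to C5 and the terminal components that build the pore, while soluble and membrane-bound inhibitors hold the cascade back on host cells. The liver makes most plasma complement. Fibroblasts, macrophages and epithelium also transcribe complement genes locally, and inflammatory cytokines are known to induce several of them, C3 and factor B among these.

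Depth was 91.6 to 111.6 M units of estimated count per library. Since 5 units is the value above 0 that occurs most often, 1 fragment was taken as 5 units, which gives 18.3 to 22.3 M fragments. Smo was at 139.9, 132.1, 123.6 and 120.4 CPM (counts per M of the TMM-scaled library size) in libraries 1 to 4 of the SmoM2 group, against 133.3, 136.1, 120.6 and 107.1 CPM in controls 1 to 4. Whether Smo includes reads of the SmoM2 transgene is not given in the sources used here. Gli1, the transcription factor that Hedgehog signalling itself induces, averaged 101.3 ± 21.5 CPM in SmoM2 and 99.3 ± 32.9 CPM in control libraries (SD, n = 4 each), with a log2 fold change of 0.03 and a 95% interval from −0.54 to 0.60. Because neither gene set the groups apart, the name SmoM2-labelled is used below, after the label. Stromal genes were abundant in every library, with the summed level of 5 stromal markers (Col1a1, Col1a2, Col3a1, Dcn and Pdgfra) at 17910 to 29670 CPM in SmoM2-labelled and 15000 to 30410 CPM in control libraries. Libraries that stood apart in markers of other cells were SmoM2-labelled 4, with a summed level of 1667 CPM over 12 macrophage and immune markers against 531.2 to 819.3 CPM in the other libraries, and control 4, with 1577 CPM over 8 epithelial markers. SmoM2-labelled 3 came next in the epithelial markers at 1025 CPM, and the remaining libraries lay between 293.4 and 481.7 CPM. Sftpc alone made up most of that sum in control 4 and SmoM2-labelled 3, at 991.8 and 563.9 CPM. Scgb1a1 of the same list went the other way and was lowest in control 4 and SmoM2-labelled 3, at 33.8 and 23.5 CPM. The summed level of 10 mesothelial markers was 113.0 to 232.4 CPM in SmoM2-labelled and 288.1 to 519.3 CPM in control libraries, without overlap. All 10 had a log2 fold change below 0. Of these edgeR called 0, with 7 at an unadjusted p under 0.05, which 3.75% of all genes tested reach. DESeq2 called 3 (Msln, Upk3b and Gpm6a), where it called 0.275% of all genes. Of 8 endothelial markers 7 had a log2 fold change below 0 and 1 above (median −1.27). Among them edgeR called 0, with 2 at an unadjusted p under 0.05, and DESeq2 called 1 (Esam). Their sum was highest in control 4, at 164.8 CPM against 65.88 to 121.5 CPM in the other libraries. The part of mesothelial and endothelial markers in the complement levels was not tested. No marker of these lists was at 0 in all libraries.

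The stretches of 250 bases just before the transcription start are shown for 3 genes. C3 is the convergence point of the cascade, C7 had the largest ratio of highest to lowest library among the members above 1000 CPM on average, and Cd55 had the largest difference between the groups. The sequences are from RefSeq on build GRCm38.p6, whose promoter table matched 4 of the 8 members (C3, C7, Cd55 and C1ra). Bases in capitals match a motif searched on both strands: GGGAA, any 3 bases and CC for NF-kB, TTNNGNAA for C/EBP, TTCNNNGAA for STAT factors, GAAA, any 2 bases and GAAA for IRF and GACCACCCA for GLI.
C3 (minus strand, chr17:57228137-57228386): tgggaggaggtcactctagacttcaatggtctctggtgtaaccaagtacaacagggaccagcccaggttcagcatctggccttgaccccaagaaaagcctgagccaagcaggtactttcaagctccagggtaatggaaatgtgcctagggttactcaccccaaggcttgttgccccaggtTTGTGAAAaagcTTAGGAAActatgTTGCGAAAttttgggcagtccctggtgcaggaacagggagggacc
C7 (minus strand, chr15:5063774-5064023): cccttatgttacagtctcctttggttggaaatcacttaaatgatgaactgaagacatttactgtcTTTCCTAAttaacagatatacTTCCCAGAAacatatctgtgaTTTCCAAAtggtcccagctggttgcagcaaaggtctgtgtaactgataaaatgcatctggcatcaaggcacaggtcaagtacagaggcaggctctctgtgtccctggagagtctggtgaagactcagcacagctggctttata
Cd55 (minus strand, chr1:130462745-130462994): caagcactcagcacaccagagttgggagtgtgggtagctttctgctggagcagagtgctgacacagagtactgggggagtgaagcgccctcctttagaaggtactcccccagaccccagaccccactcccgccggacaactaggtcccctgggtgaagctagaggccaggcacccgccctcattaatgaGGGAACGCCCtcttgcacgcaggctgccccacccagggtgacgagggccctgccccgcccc
The C3 stretch held 3 matches to the C/EBP letters, which begin 70, 58 and 45 bases before the start, and 3 or more such matches occurred in 2.61% of 32851 promoters of the same length. The C7 stretch held 2 C/EBP matches, 185 and 143 bases before the start, and 1 match to the STAT letters 164 bases before it. At least 1 C/EBP match occurred in 36.8% of all promoters and a STAT match in 7.02%. The Cd55 stretch held 1 NF-kB match, 61 bases before the start, which 4.94% of promoters also have. The GLI letters, found in 0.225% of promoters, were in none of the 4 stretches. A match describes the letters and is not a binding site.

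Per length of transcript, Serping1, C3, C7 and C4b ranked 22, 36, 58 and 78 among 20097 genes, while Masp1 ranked 17999. None of the 8 members passed the test for a difference between SmoM2-labelled and control libraries. The background in this comparison was 0% called: edgeR's quasi-likelihood test with Benjamini-Hochberg adjustment called 0 of 20162 genes. DESeq2 called 67 genes (0.275%), 0 of them complement genes. At an unadjusted p under 0.05 edgeR counted 0 of the 8 members, where 3.75% of all genes tested reach it, and the groups overlapped for all 8, where they do not for 2.44% of genes. The median log2 fold change of the 8 members was 0.01, between −0.24 for Cfb and 0.63 for Cd55, and that of all genes tested was 0. The edgeR adjusted p was 0.9999 for each of the 8, and the authors' deposited table lists an adjusted p of 1 for each. Since such a p sets no bound, the intervals are given with each gene. The 95% interval lay within 1.5-fold in either direction for 4 members (C3, C4b, C1ra and Serping1) and within 2-fold for 7, all but Cd55.

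**Figure D1:**
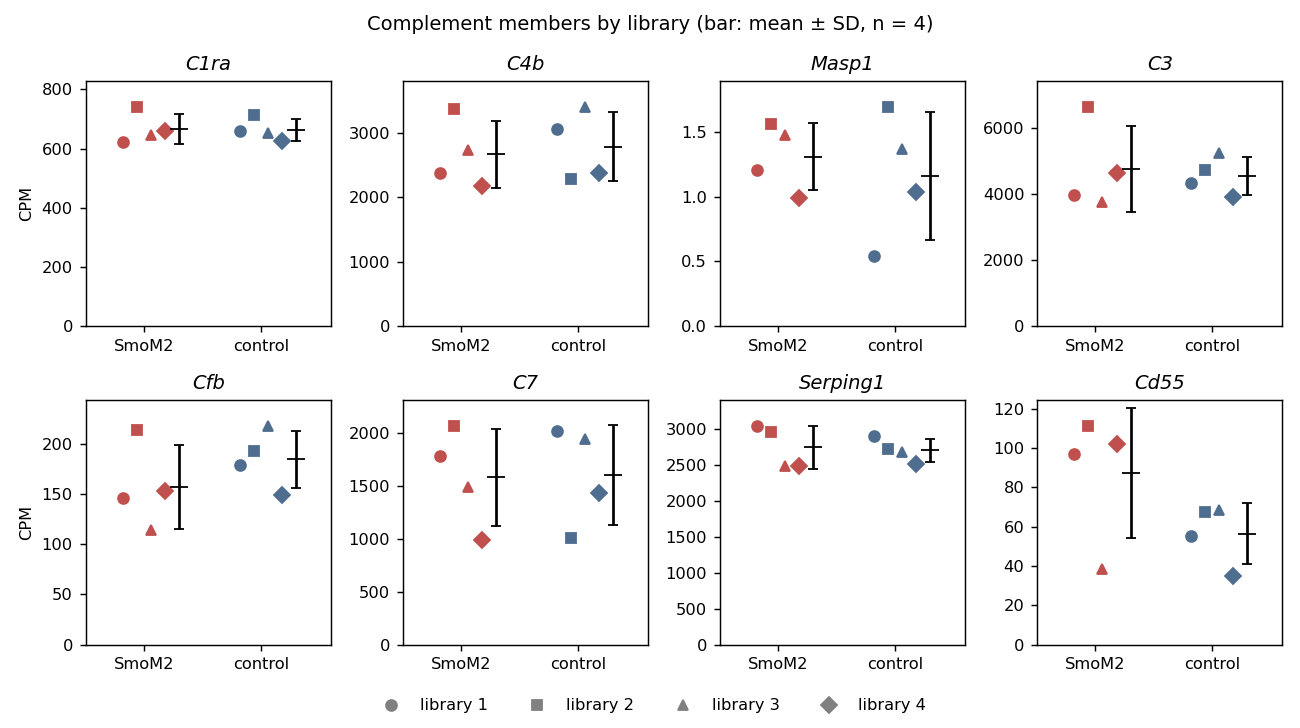
Level of each of the 8 complement members in CPM (vertical axes from 0) by library, with SmoM2-labelled libraries in red and controls in blue. Symbols number the libraries within a group and black bars are the mean ± SD of 4 libraries; the groups overlap for all 8 genes, and SmoM2-labelled library 2 (square) is among the 2 highest libraries in each panel.

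Levels of different genes are comparable only per length, so CPM were divided by the kilobases of merged exons. Serping1 was the highest at 1182 ± 130.5 CPM per kb in SmoM2-labelled and 1166 ± 69.4 CPM per kb in control libraries, rank 22 of 20097 genes with a length. C3 followed with 926.0 ± 254.9 and 886.6 ± 110.2 CPM per kb in SmoM2-labelled and control libraries, rank 36, and lay below Serping1 in 7 of 8 libraries. C7 was at 591.4 ± 171.7 CPM per kb in SmoM2-labelled and 598.0 ± 176.5 CPM per kb in control libraries. C4b was at 468.1 ± 92.1 CPM per kb in SmoM2-labelled and 488.8 ± 94.0 CPM per kb in control libraries. C7 exceeded C4b in 6 of 8 libraries, and the spreads of these neighbours overlap. C1ra came next at 223.6 ± 17.2 and 222.3 ± 12.4 CPM per kb in SmoM2-labelled and control libraries, below C4b in all 8 libraries. Cfb was at 55.5 ± 14.8 CPM per kb in SmoM2-labelled and 65.4 ± 10.1 CPM per kb in control libraries, and Cd55 at 18.0 ± 6.79 CPM per kb in SmoM2-labelled and 11.6 ± 3.23 CPM per kb in control libraries. Masp1 was the lowest at 0.133 ± 0.0266 CPM per kb in SmoM2-labelled and 0.118 ± 0.0502 CPM per kb in control libraries. Each of these lay below the gene before it in all 8 libraries. Together the 8 genes took 1.13% to 1.54% of the units in SmoM2-labelled libraries and 1.16% to 1.37% in controls.

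**Figure D2:**
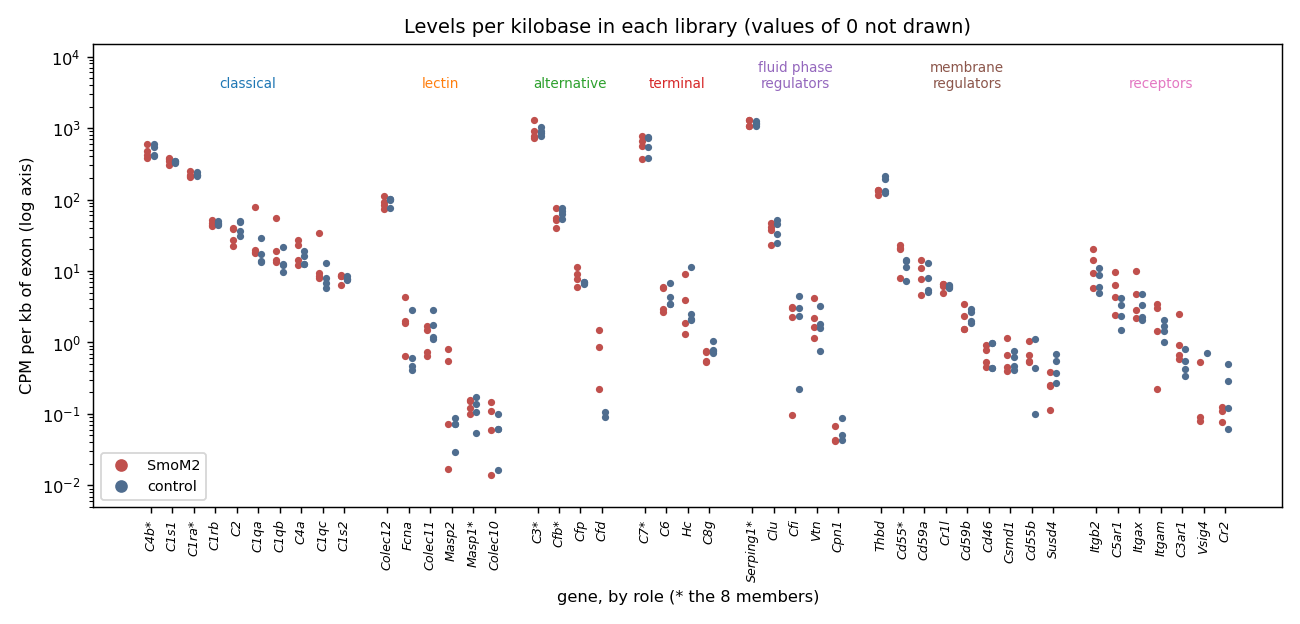
Level of the 45 complement genes that passed the filter, in CPM per kilobase of merged exons on a log axis, grouped by role, with 1 point per library (SmoM2-labelled in red to the left, control in blue to the right; asterisks mark the 8 members). Serping1, C3, C7 and C4b are the highest, while Masp1 lies near 0.126 CPM per kb.

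Of the classical route, the protease gene C1ra (ENSMUSG00000055172, mm10 chromosome 6 from 124512405 to 124523443) had 621.2, 739.5, 645.4 and 660.4 CPM in SmoM2-labelled libraries 1 to 4, against 658.7, 713.9, 651.1 and 626.7 CPM in controls 1 to 4. It was the steadiest member: the highest library was 1.19 times the lowest, and the log2 fold change was 0.01 (SE 0.09, 95% interval −0.21 to 0.22). C1ra has a near copy, C1rb, and 48.0% of the stretches of 50 bases in its transcripts also occur in those of C1rb, so the split between these genes is uncertain. C1rb was at 112.6 ± 9.78 CPM in SmoM2-labelled and 112.9 ± 5.87 CPM in control libraries. C1s1, the partner protease of C1r, was at 1105 ± 105 CPM and 1058 ± 35.2 CPM in SmoM2-labelled and control libraries, a log2 fold change of 0.06 (SE 0.10).

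C4b (ENSMUSG00000073418, chromosome 17 from 34728380 to 34743882) encodes the component that C1s cuts and that then binds covalently to the target surface. It had 2374, 3371, 2740 and 2178 CPM in SmoM2-labelled libraries 1 to 4, against 3066, 2290, 3396 and 2383 CPM in controls 1 to 4. The groups covered nearly the same range, each with a high and a low end, and the log2 fold change was −0.06 (SE 0.19, 95% interval −0.49 to 0.37). C4b shares 34.6% of its 50-base stretches with C4a, its neighbour in the same region, which was far lower at 119.1 ± 44.4 CPM in SmoM2-labelled and 93.3 ± 19.3 CPM in control libraries. C2, the other substrate of C1s, averaged 123.6 ± 32.9 CPM in SmoM2-labelled and 161.1 ± 36.1 CPM in control libraries (log2 fold change −0.38, SE 0.22, edgeR adjusted p 0.9999). The gene model Gm20547 shares 42.8% of the exon bases of C2 on the same strand, and Zbtb12 shares 4.16% on the opposite strand. How reads of these shared bases were divided is uncertain.

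The C1q chains, which recognise the target and are known as macrophage products, lay below C1ra and C1s1 and above C1s2 per length. C1qa, the highest of the chains, averaged 33.4 CPM per kb in SmoM2-labelled and 18.5 CPM per kb in control libraries. C1s1 averaged 353.2 CPM per kb in SmoM2-labelled and 338.1 CPM per kb in control libraries, and C1s2 8.002 CPM per kb in SmoM2-labelled and 7.86 CPM per kb in control libraries. C1qa had 18.6, 19.1, 20.5 and 80.8 CPM in SmoM2-labelled libraries 1 to 4, against 30.5, 17.8, 14.6 and 14.0 CPM in controls 1 to 4. SmoM2-labelled 4, the library highest in macrophage and immune markers, was also the highest for C1qb (60.2 CPM) and C1qc (66.2 CPM), and the part of immune cells in these levels was not tested. In bulk RNA, fewer cells of a type and less RNA per cell cannot be told apart. Over the classical route, 7 of 10 genes had a log2 fold change above 0 and 3 below, with a median of 0.04 and 0 called.

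Masp1, a protease of the lectin route and the lowest of the 8 members, lies on chromosome 16 from 23449417 to 23520815 (ENSMUSG00000022887). It had 1.21, 1.56, 1.48 and 0.994 CPM in SmoM2-labelled libraries 1 to 4, against 0.539, 1.70, 1.37 and 1.04 CPM in controls 1 to 4. These are about 10 to 34 fragments per library, and the groups overlapped (log2 fold change 0.18, SE 0.36, 95% interval −0.64 to 0.99). Masp2, the protease of this route that cuts C4 and C2, was at 0.243, 2.69, 1.83 and 0.0568 CPM in SmoM2-labelled libraries 1 to 4, against 0.0981 to 0.289 CPM in controls (unadjusted p 0.0401, edgeR adjusted p 0.9999). Colec12, a membrane collectin that acts as a scavenger receptor, was the highest gene of the lectin list at 785.1 ± 140.4 CPM in SmoM2-labelled and 825.4 ± 103.6 CPM in control libraries. Colec11, a soluble collectin, averaged 1.86 ± 0.867 CPM in SmoM2-labelled and 2.80 ± 1.30 CPM in control libraries, and the ficolin gene Fcna 3.06 ± 2.13 CPM in SmoM2-labelled and 1.504 ± 1.65 CPM in control libraries. Of the 9 genes of this list 6 passed the filter, 4 with a log2 fold change above 0 and 2 below, with 0 called. The liver collectin genes Mbl1 and Mbl2 and the ficolin gene Fcnb did not pass it.

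C3 (ENSMUSG00000024164, chromosome 17 from 57203970 to 57228136) was the member with the most counts. It had 3983, 6644, 3765 and 4658 CPM in SmoM2-labelled libraries 1 to 4, against 4334, 4730, 5252 and 3923 CPM in controls 1 to 4. SmoM2-labelled libraries held both the highest and the lowest value, and the control values all lay between them. The log2 fold change was 0.06 (SE 0.20, 95% interval −0.39 to 0.52), and without SmoM2-labelled 2 it was −0.14.

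Cfb (ENSMUSG00000090231, chromosome 17 from 34856374 to 34862518) encodes factor B, the protease that joins C3b in the alternative C3 convertase. It had 146.0, 214.1, 113.7 and 153.5 CPM in SmoM2-labelled libraries 1 to 4, against 179.0, 192.5, 218.1 and 149.5 CPM in controls 1 to 4. Its mean was lower in the SmoM2-labelled libraries, by less than the spread within each group allows to separate (log2 fold change −0.24, SE 0.20, 95% interval −0.68 to 0.21). The annotated gene model Gm20547 shares 79.5% of the exon bases of Cfb and was listed at 0 to 1.84 CPM, and the counting settings are not given in the sources used here, so how reads of the shared exons were divided is uncertain. Cfp, which encodes properdin, the stabiliser of that convertase, averaged 14.7 ± 3.88 CPM in SmoM2-labelled and 11.9 ± 0.335 CPM in control libraries. Cfd, which encodes factor D, the protease that cuts factor B and is known from fat cells, was barely present, at 0, 0.206, 1.36 and 0.805 CPM in SmoM2-labelled libraries 1 to 4 and at 0 to 0.0997 CPM in controls. A count of 0 allows up to 0.127 to 0.171 CPM in these libraries, taking 3 fragments per library and covering counting error only, and all 4 controls lay below that.

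C7 (ENSMUSG00000079105, chromosome 15 from 4988762 to 5063740) encodes the component that anchors the terminal complex to the membrane. It had 1783, 2068, 1486 and 992.8 CPM in SmoM2-labelled libraries 1 to 4, against 2017, 1009, 1943 and 1432 CPM in controls 1 to 4. Each group spanned about the same range, the highest library was 2.08 times the lowest, and the group means were close (log2 fold change −0.02, SE 0.28, 95% interval −0.65 to 0.62). The other terminal genes were far lower. C6 was at 15.5 ± 6.32 CPM in SmoM2-labelled and 15.9 ± 5.48 CPM in control libraries, and C8g at 0.966 ± 0.174 CPM in SmoM2-labelled and 1.23 ± 0.222 CPM in control libraries. C8a, C8b and C9 were listed at 0 in all 8 libraries. Hc, which encodes C5, had 24.7, 11.6, 57.1 and 8.26 CPM in SmoM2-labelled libraries 1 to 4 and 13.1, 15.5, 13.5 and 71.2 CPM in controls 1 to 4. Its high libraries, SmoM2-labelled 3 and control 4, were also the highest in the summed epithelial markers, mostly Sftpc. The part of epithelial RNA in the level of Hc was not tested.

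Among the soluble regulators, Serping1 (ENSMUSG00000023224, chromosome 2 from 84765387 to 84775444) encodes the C1 inhibitor, which inactivates C1r, C1s and the MASPs. It had 3051, 2969, 2485 and 2491 CPM in SmoM2-labelled libraries 1 to 4, against 2912, 2721, 2692 and 2518 CPM in controls 1 to 4. The highest library was 1.23 times the lowest, and the log2 fold change was 0.02 (SE 0.12, 95% interval −0.25 to 0.29). Clu, which encodes clusterin, averaged 128.0 ± 33.9 CPM in SmoM2-labelled and 133.4 ± 41.6 CPM in control libraries. Cfi, the protease that cuts C3b and C4b with the help of cofactors, was low at 4.71 ± 3.10 CPM in SmoM2-labelled and 5.61 ± 3.92 CPM in control libraries, and Vtn, which encodes vitronectin, was at 4.66 ± 2.70 CPM in SmoM2-labelled and 3.76 ± 2.08 CPM in control libraries. C4bp was listed at 0 in all libraries. Cpn1, a chain of carboxypeptidase N, which trims the anaphylatoxins, was listed at no more than 0.25 CPM in SmoM2-labelled and 0.327 CPM in control libraries. Of the 8 genes of this list described here 5 passed the filter, 2 with a log2 fold change above 0 and 3 below.

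Cd55 (ENSMUSG00000026399, chromosome 1 from 130439027 to 130462744) encodes decay-accelerating factor, a membrane protein that takes C3 convertases apart. It had 97.1, 111.3, 38.7 and 102.2 CPM in SmoM2-labelled libraries 1 to 4, against 55.3, 67.6, 68.3 and 34.7 CPM in controls 1 to 4. Of the SmoM2-labelled libraries 3 lay above every control, and library 3 lay near the lowest control. Cd55 shares 8.0% of its 50-base stretches with its near copy Cd55b and 102 exon bases with an antisense gene model, from which it cannot be separated without strand. The log2 fold change was 0.63, with an SE of 0.34 and a 95% interval from −0.14 to 1.40, and an unadjusted p of 0.0958 in edgeR. The 2 low libraries, SmoM2-labelled 3 and control 4, were also the lowest in the summed level of 10 adventitial fibroblast markers, at 29910 and 29340 CPM against 36870 to 49990 CPM in the others, and the highest in epithelial markers. Gsn alone made up most of that sum, and without it the same libraries were the lowest, at 4873 and 4004 CPM against 7136 to 10040 CPM in the others. They were also the highest in the summed level of 8 alveolar fibroblast markers, at 9751 and 10700 CPM against 6960 to 7853 CPM. Of these 8 markers 7 had a log2 fold change below 0 and 1 above (median −0.18). Among them edgeR called 0 and DESeq2 called 1 (Wnt2), where it called 0.275% of all genes. Wnt2 was at 11.6 to 15.4 CPM in SmoM2-labelled and 22.4 to 27.4 CPM in control libraries, without overlap, as for 2.44% of all genes tested. All 10 adventitial markers had a log2 fold change above 0, with a median of 0.38 and 0 called. The part of these marker groups in the Cd55 difference was not tested.

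Of the other membrane regulators, 3 of 8 had a log2 fold change above 0 and 5 below, with a median of −0.05. Cr1l, the mouse gene for Crry, averaged 62.6 ± 7.68 CPM in SmoM2-labelled and 63.1 ± 2.63 CPM in control libraries. Thbd, which encodes thrombomodulin, averaged 483.8 ± 34.8 CPM in SmoM2-labelled and 615.0 ± 168.2 CPM in control libraries (log2 fold change −0.35, SE 0.19). Cd59a, the inhibitor of pore assembly, averaged 16.8 ± 7.47 CPM in SmoM2-labelled and 14.2 ± 6.41 CPM in control libraries. Csmd1 was at 12.7 ± 6.56 CPM in SmoM2-labelled and 10.8 ± 3.002 CPM in control libraries.

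The receptors for complement fragments were low, and 6 of 7 that passed the filter had a log2 fold change above 0, with 0 called. The anaphylatoxin receptor gene C5ar1 had 6.31, 16.5, 11.1 and 24.7 CPM in SmoM2-labelled libraries 1 to 4, against 8.63, 3.81, 10.6 and 6.03 CPM in controls 1 to 4 (log2 fold change 1.01, SE 0.44, edgeR adjusted p 0.9999). Of the integrin chains that bind C3 fragments on leukocytes, Itgb2 averaged 37.9 ± 18.9 CPM in SmoM2-labelled and 23.4 ± 8.53 CPM in control libraries. Itgax averaged 24.0 ± 17.3 CPM in SmoM2-labelled and 14.9 ± 5.81 CPM in control libraries, and Itgam 10.1 ± 7.38 CPM in SmoM2-labelled and 7.77 ± 2.19 CPM in control libraries. SmoM2-labelled 4 was the highest library for C5ar1, Itgb2, Itgax and C3ar1, as it was for the immune markers, all 12 of which had a log2 fold change above 0 (median 0.64, 0 called). Over the 47 complement genes outside the 8 members, 37 passed the filter, 21 with a log2 fold change above 0 and 16 below. Their median was 0.06 and 0 were called. In edgeR 2 of the 37 (Masp2 and Cfd, both under 3 CPM in every library) had an unadjusted p under 0.05, which 3.75% of all genes tested reach.

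**Figure D3:**
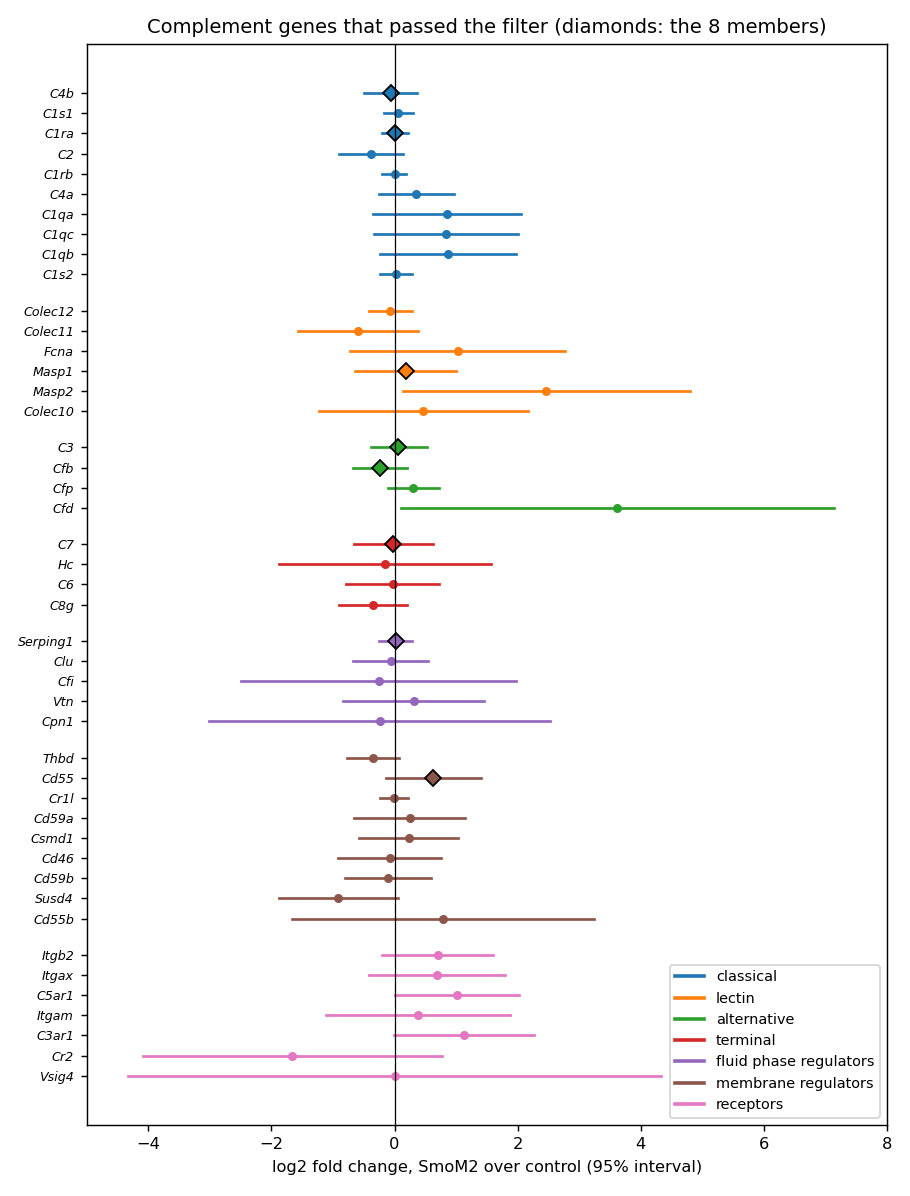
Log2 fold change, SmoM2-labelled over control, with its 95% interval from edgeR for the 45 complement genes that passed the filter, by role and, within a role, from the highest to the lowest mean CPM (diamonds are the 8 members). Intervals are narrow for C1ra and Serping1 and wide for genes of few counts. Those of Masp2 and Cfd, both under 3 CPM in every library, do not include 0. In edgeR both have an unadjusted p under 0.05, which 3.75% of all genes tested reach.

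Across libraries the members did not share a common order. SmoM2-labelled 2 was among the 2 highest libraries for all 8 members and the highest for 4 (C3, C7, C1ra and Cd55), while SmoM2-labelled 3 was the lowest for 3 (C3, Cfb and Serping1). SmoM2-labelled 2 also had the lowest depth (91.6 M units) and the lowest TMM factor (0.956) of the 8 libraries. For how many of all genes it is among the 2 highest was not counted, and the part of the scaling was not tested. The 3 highest libraries for C3 and for Cfb were the same: SmoM2-labelled 2, control 3 and control 2. These were also the 3 highest in the summed level of 16 acute phase, NF-kB and IL-6 family target genes, at 6390 CPM in SmoM2-labelled 2, 7231 CPM in control 3 and 5644 CPM in control 2, against 4312 to 4862 CPM in the other libraries. Cebpd, Socs3 and Cebpb weighed most in that sum. The same 3 libraries were highest for Cebpb, Il6, Lif, Cxcl1, Nfkbia and Icam1, but not for every gene of the list. Hp and Cxcl2 were lowest in control 2, at 5.88 and 22.9 CPM, and Saa3 was lower in control 3 (12.2 CPM) than in control 4 (32.2 CPM). That list had a median log2 fold change of 0.05 and 0 called, and its part in the levels of C3 and Cfb was not tested. The 12 interferon-stimulated genes listed summed to 1035 to 1284 CPM in SmoM2-labelled and 1106 to 1180 CPM in control libraries, with 11 log2 fold changes above 0 and 0 called. The 3 highest libraries for C4b and C7 were SmoM2-labelled 2, control 1 and control 3, and both genes were lowest in SmoM2-labelled 4.

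**Figure D4:**
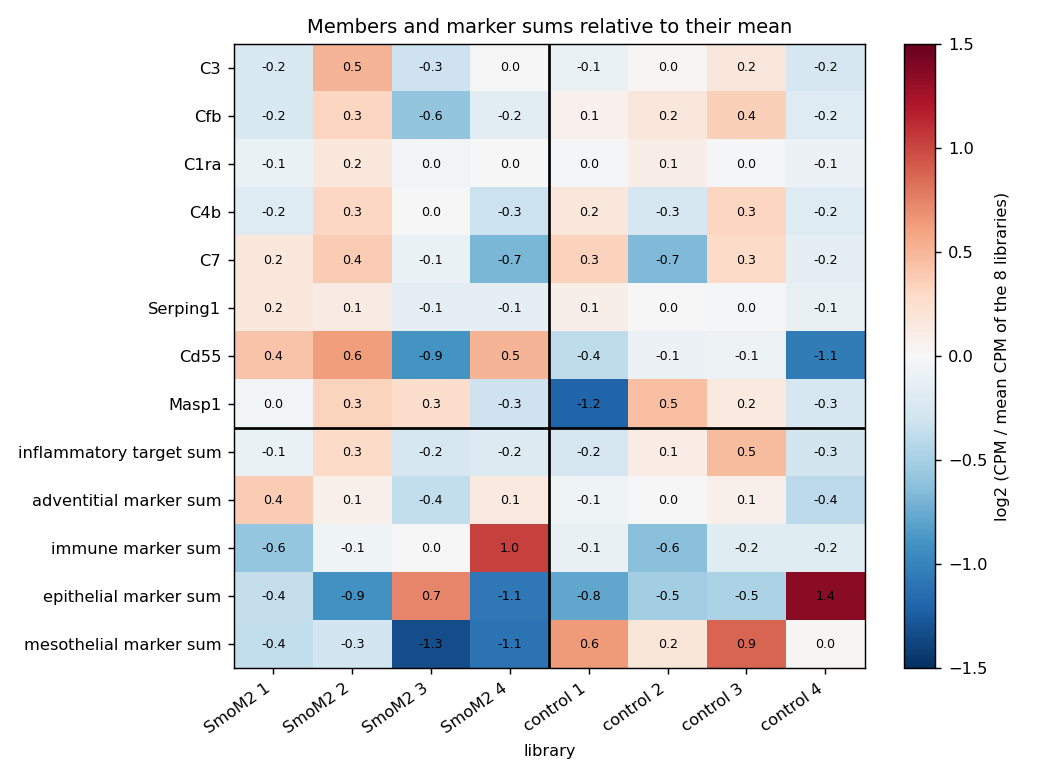
Level of each member (upper block) and summed level of 5 gene lists (lower block) in each library, as log2 of CPM over the mean CPM of all 8 libraries. SmoM2-labelled 2 and control 3 are above the mean for C3, Cfb and the inflammatory target sum, and SmoM2-labelled 3 and control 4 are low in Cd55 and in adventitial markers.

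The profile of each member over the 8 libraries (log2 CPM) was set beside those of 10801 other tested genes (10802 for Masp1), by Pearson's r. These are genes whose mean reached 5 CPM, without those named as predicted gene models or clones, and the ranks hold within this set. These values are descriptions without a p, since the genes were picked as the most alike. The profile most like that of C1ra was C1rb, its near copy (r = 0.97), and C3 ranked 40 (r = 0.80). Those most like C3 were Sfxn5, C2cd2l and Cmip (r = 0.91 to 0.94), with Cfb at rank 61 (r = 0.83). Those most like C4b were Mfsd7a, Cachd1 and Tmed1 (r = 0.92 to 0.96), with C7 at rank 27 (r = 0.83). Those most like C7 were Dnajc2, Fbxl16 and Mtrex (r = 0.96 each). Those most like Cfb were Capns1, Sipa1l2 and Cldnd1 (r = 0.93 to 0.97). Those most like Serping1 were Recql, Sec62 and Ctdsp2 (r = 0.95 to 0.99). Cd55 was most like Islr, Pde3b and Uap1 (r = 0.98 to 0.99), and Islr was also low in SmoM2-labelled 3 and control 4, at 275.0 and 247.3 CPM against 379.8 to 602.7 CPM in the other libraries. Those most like Masp1, which had 10 to 34 fragments per library, were Plekhg1, Fto and Zbtb4 (r = 0.96 to 0.98).

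Each group held 2 male and 2 female libraries, read from the counts of Xist against the Y-linked gene Ddx3y and not from the labels. The female libraries were SmoM2-labelled 3 and 4 and controls 2 and 4. Of these, SmoM2-labelled 4 stood apart in immune markers, and SmoM2-labelled 3 and control 4 in epithelial markers. No male library stood apart in these lists, and the part of these markers in the sex differences was not tested. The sex term of a fit with group and sex was read after the values were seen. C7 was at 1783 to 2068 CPM in the 4 male libraries and at 992.8 to 1486 CPM in the 4 female libraries, without overlap (log2 difference, male minus female, 0.67, 95% interval 0.27 to 1.06). Its unadjusted p was 0.00503 and its edgeR adjusted p over all genes 0.943, so it did not pass. Over all genes 4.69% reach an unadjusted p under 0.05 and 3.20% do not overlap between male and female libraries. The same fit called 6 of 20162 genes (0.0298%), 0 of them complement genes. C4b averaged 3052 ± 476 CPM in male and 2398 ± 242.8 CPM in female libraries (SD, n = 4 each), with overlap (log2 difference 0.35, 95% interval −0.01 to 0.70). Cfb averaged 189.3 ± 33.8 CPM in male and 152.3 ± 32.2 CPM in female libraries (0.32, −0.08 to 0.72), with overlap. Serping1 averaged 2906 ± 153.6 CPM in male and 2554 ± 112.7 CPM in female libraries (0.19, −0.05 to 0.43), also with overlap. Among the other complement genes, the log2 difference, male minus female, was −3.87 for Cfd, −0.85 for Colec11 and 1.6 for Fcna, with unadjusted p of 0.0111, 0.0393 and 0.0291, and the edgeR adjusted p was 0.943 for each.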

How the data were processed

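The authors deposited whole-number estimated counts per Ensembl gene (expected counts) for 8 libraries. FastQC, HISAT, StringTie, DESeq and the mm10 build are listed, per the submitters' processing notes, but no version is. Column names give the group and a number but not the animal, so libraries are called by group and number. The authors' deposited table gives, per the file headers, mean signal per group (counts over size factors), their ratio, its log2 value and p-values; size factors computed from the counts gave its means to within 5e-10, which sets its direction as SmoM2 over control. The kit is not described as marking strand, and the counting settings were not given in the sources used here. No pair of libraries agreed within sampling noise (chi-square over degrees of freedom 20.9 to 95.3, in fragments of 5 units), so all were kept.

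The counts were tested with edgeR 4.0.16 in R 4.3.3 (TMM, filterByExpr, robust quasi-likelihood, group as the sole term), adjusted over 20162 genes. SE was derived from the estimate and its F statistic. DESeq2 1.42.0, limma-voom 3.58.1, RLE factors, no filter, sex as a covariate, counts divided by 5, and leaving out each library were alternatives. Symbols came from the reference for 99.3% of identifiers; positions and exon lengths are from GENCODE M21 (mm10). The members, gene lists and naming rule were chosen with earlier results of these data known. All members are named, and of the other complement genes up to 4 per role with the highest mean CPM, and for each member the 3 genes with the highest r; any further gene was named after its values were seen. A gene of the complement lists is not reported here and is in none of their counts.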

Additional observations from a re-analysis of the deposited data

Results flagged for a closer look

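Of 76 groups of 4 libraries (38 complement genes in each group), 6 held a library far from the other 3, by a limit that chance passes in about 1 in 20. The 38 genes included C1qa, C1qb, C1qc, C1s2 and C3ar1, which were added outside the naming rule. Because of these additions, and because the C1q chains were apart in the same library, the count cannot be compared with that chance rate. In SmoM2-labelled libraries, library 4 was apart for the C1q chains, at 80.8 CPM for C1qa (14.0 to 30.5 CPM in the other 7 libraries), 60.2 CPM for C1qb and 66.2 CPM for C1qc. C1s2 was low in SmoM2-labelled 1 at 16.9 CPM, with the next library of that group at 22.6 CPM. Among controls, control 4 was apart for Hc at 71.2 CPM (the next at 15.5 CPM) and control 3 for the ficolin gene Fcna at 3.97 CPM (the next at 0.846 CPM).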

How the results depend on the processing

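Neither the 8 members nor the other complement genes held a call under any alternative run: 0 with DESeq2, limma-voom, RLE factors, no filter, sex as a covariate, counts divided by 5, or without any single library. Over all genes DESeq2 called 67, and leaving out each library in turn gave 0 to 1 with edgeR (1 without SmoM2-labelled 4). The 6 alternatives on all libraries left every member's direction as it was, while leaving out single libraries gave log2 fold changes of −0.14 to 0.16 for C3, −0.20 to 0.04 for C4b, −0.19 to 0.15 for C7, −0.05 to 0.04 for C1ra, −0.04 to 0.07 for Serping1, −0.06 to 0.41 for Masp1, −0.43 to −0.11 for Cfb and 0.45 to 0.87 for Cd55. Only Cfb and Cd55 kept 1 direction throughout. Without both SmoM2-labelled 4 and control 4, chosen after seeing the data, C7 was at 0.10, C1ra at −0.01 and Cd55 at 0.37, with 0 genes called. The cause of these shifts was not tested beyond the smaller number of libraries. The count table numbers its columns 1 to 4 in each group, tied to no litter, batch or day. Same-numbered libraries did not deviate together (r of their deviations from the group means −0.18 to 0.14 over all genes tested, and only number 1 matched its own number best in both groups). With that number as a replicate block, an alternative added after seeing the data, 0 genes were called, and the log2 fold change was 0.03 for C3 and 0.58 for Cd55, each of the 8 members keeping its direction. Few fragments lay behind Masp1 (10 to 34 per library), Masp2 (1 to 47) and Cfd (0 to 29).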
